A study of Danio rerio with 12 samples.

Results

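Of the 12 arrays in the series 6 are described here: the 3 on which the probe sets for both cyp1a and cyp19a1b were bright, and the 3 on which neither was. They were chosen by these signals and not by their titles, with cyp1a called high above a signal of 5000 and cyp19a1b called high above 150. The both-high arrays are titled E2+TCDD 1, E2 3 and E2+TCDD 3, and the both-low arrays are titled DMSO 1, DMSO 2 and TCDD 2. Titles and markers disagree: E2 3, by its title given no dioxin, had high cyp1a, and TCDD 2, by its title given dioxin, had low cyp1a, so that 2 of the 6 titles went against a marker, as did 6 of all 12. The marker signals chose the arrays and are evidence of nothing else, and every test below speaks of arrays sorted in this way and not of an exposure.

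Each array measured the RNA of a pool of about 30 whole larvae of wild-type EkkWill zebrafish, exposed from 72 to 96 hours after fertilization and collected at 96 hours. The labelled exposures are 0.1% DMSO, the solvent; 0.1 µM E2, the estrogen estradiol; 1 nM TCDD, a dioxin; and 0.1 µM E2 with 1 nM TCDD, with 3 arrays each. The files' short descriptions give each array a number and a letter, from which 3 pairs were formed, each with 1 both-low and 1 both-high array: DMSO 1 with E2+TCDD 1 (letter C), DMSO 2 with E2 3 (letter B, the same numbers as the pair of letter C), and TCDD 2 with E2+TCDD 3 (letter B, other numbers). The series text speaks of 2 batches without saying which arrays they hold. Arrays of the pairs of DMSO 1 and DMSO 2 share their numbers, so they may hold the same RNA, and p-values measure only the spread between arrays, which may be in part technical.

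TCDD binds the aryl hydrocarbon receptor (AHR), a ligand-activated transcription factor that in zebrafish acts mainly through Ahr2 and switches on cytochrome P450 genes such as cyp1a, whose product oxidises many foreign compounds. Estrogen receptors bind estradiol and in the zebrafish brain raise cyp19a1b, the aromatase of radial glia, which itself makes estrogens. Other genes under the same receptors can move with the markers that sorted the arrays, and their differences are not independent of the sorting.

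Values are given in the order of the pairs, as the deposited MAS5 signal, an intensity on a linear scale that can be compared between arrays for 1 probe set but not between probe sets. The cyp1a signal was 382, 329 and 324 on the both-low arrays and 23173, 21651 and 21510 on the both-high arrays. The cyp19a1b signal was 46.3, 50.2 and 52.1 against 256, 267 and 256. Over all 12 arrays the lowest high cyp1a signal was 20170 and the highest low one 414.7, and the lowest high cyp19a1b signal, 255.9, was 3.65 times the highest low one, so no array lay near either threshold. A probe set annotated to mpx, which shares the cluster number of the cyp1a probe set, read 40.3, 29.7 and 5.4 against 800, 929 and 826. It was left out of every fit with the 7 other probe sets of the marker clusters. The other probe sets annotated to mpx overlapped between the groups, at 1.2 to 174.1 on both-low and 2 to 141.5 on both-high arrays. The other 2 cyp19a1b probe sets were dim and overlapped between the groups, at 4.8 to 58.3 on both-low and 13 to 61.7 on both-high arrays.

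**Figure D1:**
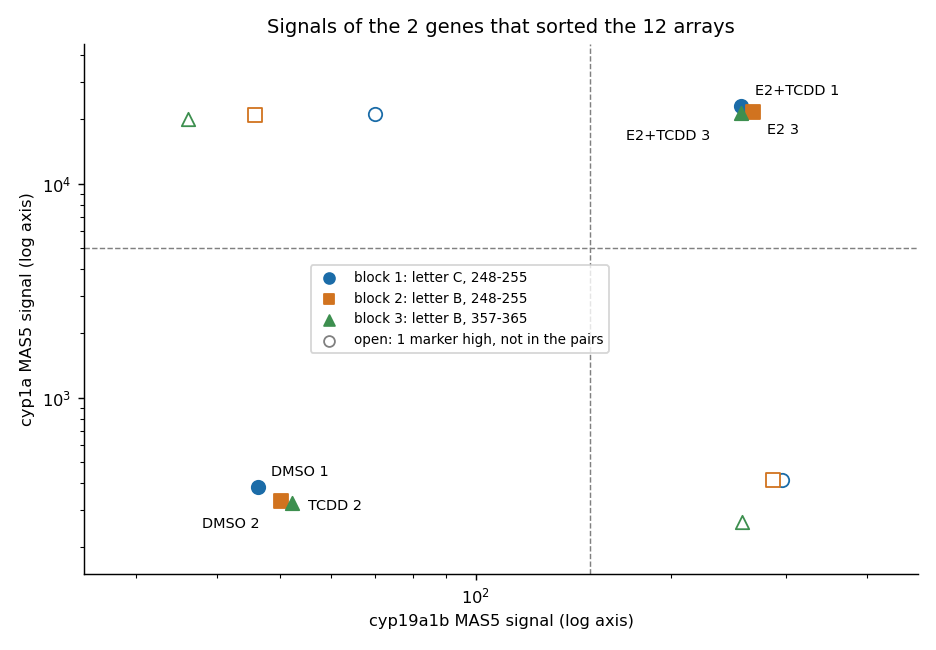
Signal of the cyp1a probe set (vertical, log axis) against that of the cyp19a1b probe set (horizontal, log axis) on all 12 arrays; filled points are the 6 arrays compared, open points those with 1 marker high, colours and shapes the 3 blocks and dashed lines the thresholds of 5000 and 150. The 3 both-high arrays lie at 21510 to 23173 for cyp1a and 256 to 267 for cyp19a1b, far from both lines.

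The arrays carried the RNA of whole larvae: the fast muscle gene mylpfa read 26998 to 33440 over the 12 arrays, the skin keratin krt4 read 18034 to 22524, the ultraviolet cone opsin opn1sw1 read 20367 to 26047 and the liver gene fabp10a read 1155 to 4586. The correlation of log2 signals was 0.982 to 0.987 within the pairs. It was as high, at 0.984 to 0.988, between letter B arrays of different pairs. Between arrays of letter C and of letter B it was 0.962 to 0.971. In a whole larva, fewer cells of a type and less RNA per cell cannot be told apart.

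Both-high arrays were brighter than their both-low partners for some genes, among them cyp1c1, cyp3a65, sult6b1, tiparp, fosab and gstp1.2, and dimmer for others, among them krt15, sox9b, fabp10a, cxcl12a and cxcl12b. Of the gene lists described below, none had a call for more than 9 of its members, and list medians are given beside the counts. Each list count stands against the shares over all probe sets tested, 1.09% called higher and 0.542% called lower. Of 11622 probe sets tested with limma (log2(signal + 16), pairs as a block, Benjamini-Hochberg adjusted p under 0.05), 190 passed, 1.63% of all tested: 127 were higher on both-high arrays (1.09%) and 63 were lower (0.542%). At an unadjusted p under 0.05 there were 1379. The sign was the same in all 3 pairs for 189 of the 190, and for 148 the 2 groups did not overlap. Over all probe sets tested, 1071 (9.22%) did not overlap, 563 higher (4.84%) and 508 lower (4.37%). Most changes were small: 17 probe sets were at least 2-fold higher, 4 at least 2-fold lower and 92 changed by under 1.5-fold, where folds are on the log2(signal + 16) scale and understate the change of dim probe sets. The median difference over all probe sets was -0.01 on the log2 scale. The 190 included 152 probe sets with 1 gene symbol, for 135 genes, and 34 with none. With only 3 pairs, the spread of each probe set was estimated largely from other probe sets, which the adjusted p-values below depend on. The count rests on the block and on the variance model: it was 16 without the block and 29 without a variance trend, and it was 84 without the pair DMSO 2 and E2 3. Fits of both-high against both-low without 1 pair have 4 arrays, so a call lost there need not mean a smaller difference. On the 4 arrays whose titles match both markers (DMSO 1, DMSO 2, E2+TCDD 1 and E2+TCDD 3) 242 passed, 131 higher and 111 lower, of which 136 were among the 190. That fit had the letter as its block, since DMSO 2 and E2+TCDD 3 come from different pairs. These 2 arrays also differ in their number series, so within letter B a difference between series cannot be told apart from one between marker states. Calls and medians that changed in that fit carry this limit.

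The largest rise was in cyp1c1, a cytochrome P450 of the same family as cyp1a. Its signal was 92.6, 98.4 and 118 on the both-low arrays and 2560, 3223 and 3015 on the both-high arrays. The groups were far apart, and the difference was 24.8-fold, or 4.63 ± 0.10 on the log2 scale (SE, n = 3 pairs, limma adjusted p = 1.774e-11). tiparp, an ADP-ribosyltransferase that is induced by AHR and feeds back on it, read 503, 485 and 466 against 1246, 1202 and 1055. It rose 2.36-fold, by 1.28, 1.28 and 1.15 on the log2 scale in the 3 pairs (limma adjusted p = 4.925e-06). The receptor gene ahr2 itself read 602, 691 and 617 against 818, 1016 and 1091, with no overlap. Its log2 difference was 0.59 ± 0.10 (limma adjusted p = 0.006431). Without the pair DMSO 2 and E2 3 that difference was 0.62 ± 0.14, and ahr2 no longer passed (limma adjusted p = 0.05626). Of the 16 genes listed for the AHR pathway 5 could be tested, 3 passed, all higher, and their median log2 difference was 0.59. On the array's annotation, cyp1b1, cyp1c2 and ahrra were not named.

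**Figure D2:**
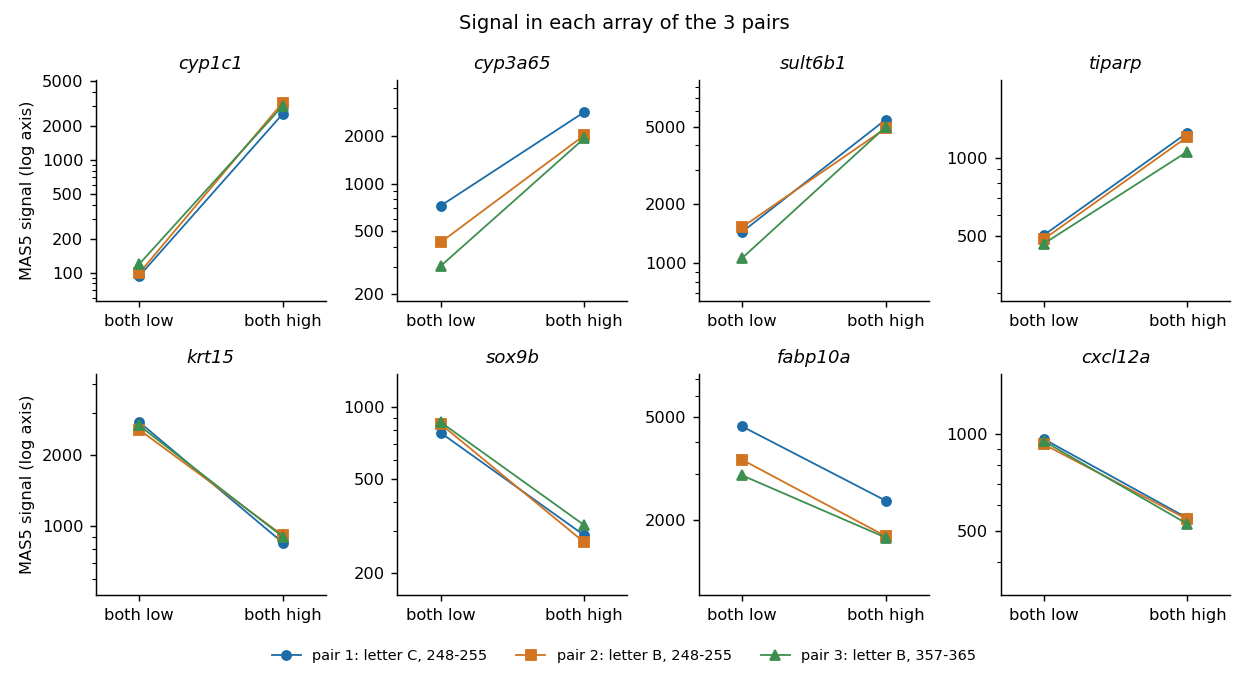
MAS5 signal (log axis) of 8 genes on the both-low and the both-high array of each of the 3 pairs, joined by lines. In all 3 pairs the lines rise for cyp1c1, cyp3a65, sult6b1 and tiparp and fall for krt15, sox9b, fabp10a and cxcl12a, and no both-high array overlaps a both-low one.

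Of 24 tested genes of xenobiotic metabolism 4 rose and none fell, and their list's median of 0.11 lay close to that of all probe sets. On the 4 title-matching arrays 3 rose and 1 fell, and without the pair TCDD 2 and E2+TCDD 3 the counts were 4 and 1. cyp3a65, a cytochrome P450 of gut and liver, read 724, 426 and 302 against 2822, 2015 and 1928, a 4.76-fold rise (log2 2.25 ± 0.11, limma adjusted p = 1.504e-07). All 3 both-high arrays were brighter than all 3 both-low ones. sult6b1, a sulfotransferase, which adds sulfate groups in conjugation reactions, read 1441, 1525 and 1058 against 5430, 4904 and 4982 and rose 3.82-fold (log2 1.93 ± 0.09, limma adjusted p = 1.203e-07). cyb5a encodes cytochrome b5, an electron donor to cytochrome P450 enzymes, and its signals of 1892, 1736 and 1402 stood against 3543, 4534 and 4406, a 2.47-fold rise (limma adjusted p = 2.552e-05). mao, the monoamine oxidase of zebrafish, rose by 0.97 on the log2 scale and all its both-high arrays were brighter than all its both-low ones. The glutathione transferase gstt1b rose by 0.45 and lost its call on the 4 title-matching arrays (limma adjusted p = 0.1051) and without the pair of DMSO 1 (0.09529) or of DMSO 2 (0.1065). The 4 list members that rose were cyp3a65, sult6b1, cyb5a and gstt1b, while mao is on no list.

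Of 23 antioxidant genes of the type that the transcription factor Nrf2 controls, 7 rose and 1 fell, with a list median of 0.03. gstp1.2, a glutathione transferase, read 7585, 7106 and 6951 against 10349, 9571 and 9987 and rose 1.38-fold (log2 0.47 ± 0.06, limma adjusted p = 0.0007237). nfe2l2a, the gene of Nrf2, read 970, 1238 and 994 against 1429, 1668 and 1439, a log2 difference of 0.50 ± 0.08 (limma adjusted p = 0.005412). Both genes had separate groups in these arrays. The other rises were between 0.38 and 0.58: gclm, a subunit of the enzyme that starts glutathione synthesis, gsr, glutathione reductase, nqo1, a quinone reductase, prdx1, a peroxiredoxin, and txnrd3, a thioredoxin reductase. gpx4a, a glutathione peroxidase for lipid peroxides, fell by 0.32. Other prdx1 probe sets passed as well, with log2 differences of 0.71 and 0.57 (limma adjusted p = 0.001786 and 0.003938). Second, dimmer probe sets did not pass for txnrd3 (log2 difference 0.06, limma adjusted p = 0.9235) or nfe2l2a (0.49, 0.07576). Most of these calls were fragile: on the 4 title-matching arrays 3 rose and 1 fell, and 4 of the 7 rises were lost, namely nfe2l2a (limma adjusted p = 0.1018), gclm (0.05346), gsr (0.09161) and txnrd3 (0.2012). Without the pair DMSO 2 and E2 3 the list held 3 rises and no fall; gclm, gsr, nqo1, txnrd3 and gpx4a no longer passed (limma adjusted p = 0.07205 to 0.3054). Without the pair of letter C, gpx4a, prdx1 and txnrd3 did not (0.07754 to 0.1128), and without the pair TCDD 2 and E2+TCDD 3, gsr, nqo1 and prdx1 did not (0.05557 to 0.1256).

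Of 39 tested heat shock and immediate early genes, 9 were called higher and none lower in this comparison, with a list median of 0.25. The list's median was 0.40 and 0.38 in the pairs of DMSO 1 and DMSO 2, but 0.09 in the pair TCDD 2 and E2+TCDD 3. Called or not, 32 members differed by more than 0 and 7 by less. Over all probe sets tested, 1.09% were called higher. fosab, a subunit of the transcription factor AP-1, read 298, 270 and 354 against 876, 735 and 565 and rose 2.27-fold (log2 1.18 ± 0.14, limma adjusted p = 0.0007237). The rise was smaller in the pair TCDD 2 and E2+TCDD 3, at 0.65, than in the other pairs, at 1.51 and 1.39. npas4a, an early gene of active neurons, read 209, 212 and 323 against 479, 399 and 467, a log2 difference of 0.84 ± 0.13 (limma adjusted p = 0.003938). Fitted with all 12 arrays, neither passed, at limma adjusted p = 0.1665 for fosab and 0.448 for npas4a. hsp90aa1.2, a chaperone, read 812, 645 and 754 against 1459, 980 and 1279, without overlap (log2 0.73 ± 0.09, limma adjusted p = 0.0007237). hsp70.3 and dnajb1b, a chaperone and a co-chaperone, rose by 0.72 and 0.64, and the early genes klf2b, junbb and ier2a by 0.75, 0.63 and 0.55. Those 3 early genes did not pass without the pair DMSO 2 and E2 3 (limma adjusted p = 0.06126, 0.1235 and 0.1293), nor did dnajb1b without the pair of letter C (0.06799) or ier2a on the 4 title-matching arrays (0.09885). With all 12 arrays junbb and ier2a did not pass either (0.07246 and 0.1874). pck1, the enzyme that commits carbon to glucose synthesis, was also on this list, with 751, 725 and 634 against 1485, 1435 and 1259. Its rise was 0.97 on the log2 scale in each pair (SE 0.08, limma adjusted p = 2.887e-05). The count of this list was 5 with all 12 arrays in the fit, 6 without the pair DMSO 2 and E2 3 and 16 without the pair TCDD 2 and E2+TCDD 3. Of 26 genes of endoplasmic reticulum chaperones, hspa5 alone passed, higher by 0.43. Without the pair DMSO 2 and E2 3 its difference was again 0.43, and it did not pass (limma adjusted p = 0.06834). The list's median was 0.16, with 22 differences above 0 and 4 below. Of all probe sets tested, 51.9% differed by less than 0, and the sign counts of both lists stand beside that share.

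Among the falls, krt15 and sox9b were the largest. krt15, a type I keratin, read 2761, 2564 and 2670 against 855, 917 and 905, 2.95-fold lower (log2 -1.56 ± 0.08, limma adjusted p = 1.504e-07). sox9b, a transcription factor of cartilage and jaw development, read 779, 848 and 863 against 289, 270 and 319, 2.74-fold lower (log2 -1.46 ± 0.10, limma adjusted p = 2.943e-06). On each group's arrays these values lay close together and far from the other group's. Of 20 cartilage and bone genes 3 fell and none rose: sox9b, hapln1a, a link protein that ties hyaluronan to proteoglycans, and matn1, a cartilage matrix protein. hapln1a read 946, 1068 and 994 against 404, 678 and 665 (log2 -0.80 ± 0.12, limma adjusted p = 0.002918), and its largest fall was in the pair with letter C, at -1.20. matn1 fell by 0.33, its groups overlapped, and it lost its call without that pair (limma adjusted p = 0.1986) and with all 12 arrays (0.1406). The list's median, -0.06, was near that of all probe sets. Also among the 15 largest falls were loxa, a lysyl oxidase that cross-links collagen, which fell by 0.97, and spon2b, a spondin, which fell by 0.92. Without the pair of letter C, loxa did not pass (limma adjusted p = 0.06909).

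Of 22 skin genes 3 fell, the keratins krt15, krt94 and krt91, and 1 rose, agr2, which helps fold mucins. krt94 read 1468, 1166 and 1051 against 621, 639 and 584 and was 1.96-fold lower (limma adjusted p = 0.0001786). krt91 fell by 0.29 and agr2 rose by 0.31. Both lost their calls without the pair DMSO 2 and E2 3, at limma adjusted p = 0.08634 and 0.2748, and without the pair TCDD 2 and E2+TCDD 3, at 0.057 and 0.2134. agr2 also did so without the pair of letter C, at 0.06792. A second, slightly dimmer krt91 probe set fell by 0.42 and passed in the main fit (limma adjusted p = 0.002227). The list's median was -0.06.

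Of 14 tested genes on the leukocyte list 3 rose and 2 fell, with a median of 0.00. ccl27a, a chemokine, was dim on the both-low arrays, at 32.9, 35.5 and 18.8, and read 173, 177 and 163 on the both-high arrays. It rose 4.21-fold (log2 2.07 ± 0.19, limma adjusted p = 5.423e-05), a value that depends on the added 16. The chemokines cxcl12a and cxcl12b, which guide cells that carry Cxcr4, fell: cxcl12a read 965, 929 and 951 against 547, 542 and 525 (log2 -0.80 ± 0.09, limma adjusted p = 0.0004063), and cxcl12b read 581, 700 and 633 against 283, 395 and 369 (log2 -0.85 ± 0.10, limma adjusted p = 0.0006916). The matrix proteases mmp13a and mmp9 rose by 0.97 and 0.75, and neither passed without the pair of letter C (limma adjusted p = 0.1223 and 0.1183). Without the pair DMSO 2 and E2 3, mmp9 did not pass either (0.1472). Of mmp13a, the pair of letter C alone gave 1.76, and the others gave 0.63 and 0.52. A second, dimmer cxcl12a probe set differed by -0.49 and did not pass (limma adjusted p = 0.05135). On no list, but among the largest changes, esm1, which encodes a secreted proteoglycan, rose by 1.03, and plvapb, a protein of fenestrated vessels, read 831, 916 and 915 against 551, 559 and 487, a log2 difference of -0.72 ± 0.10 (limma adjusted p = 0.001672). esm1 did not pass without the pair DMSO 2 and E2 3 (limma adjusted p = 0.06678).

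**Figure D3:**
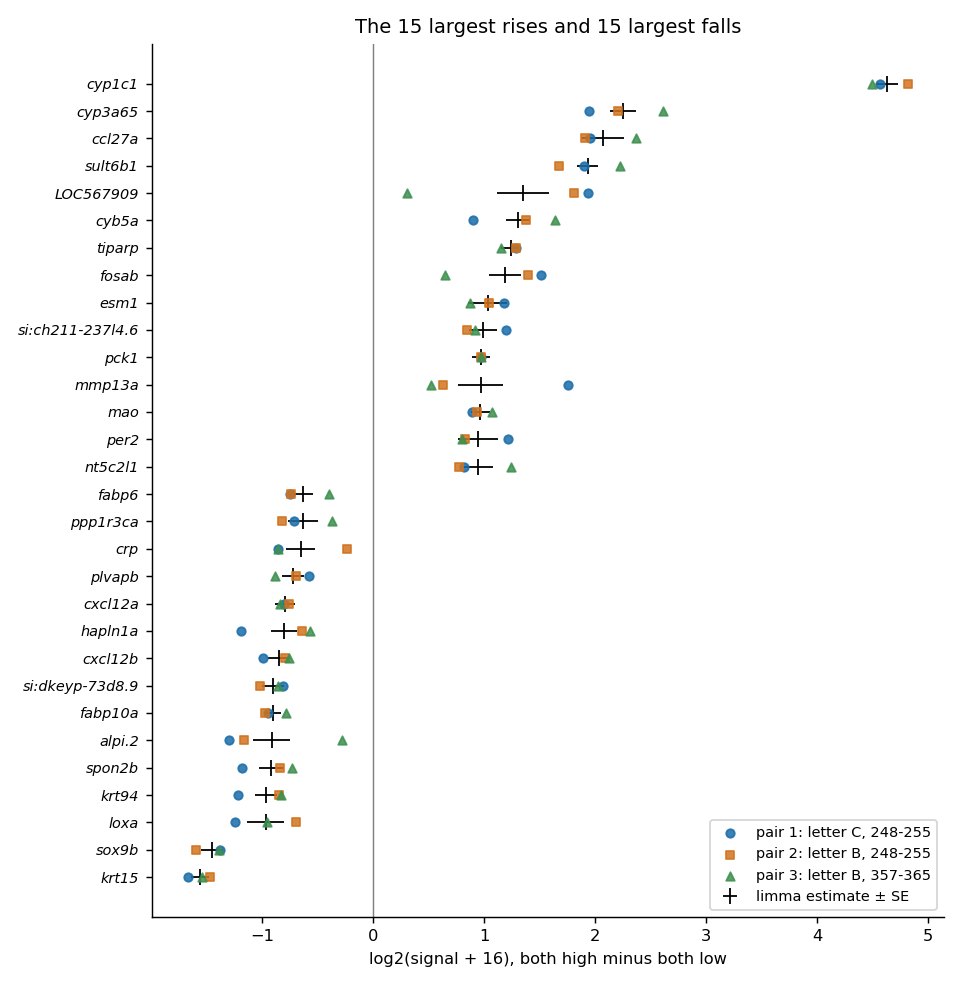
Log2 difference, both-high minus both-low, of the 15 largest rises and the 15 largest falls among probe sets that passed; coloured points are the 3 pairs, and black marks with bars are the limma estimate with its SE. The estimates run from -1.56 for krt15 to 4.63 for cyp1c1, and LOC567909 and alpi.2 have 1 pair, TCDD 2 and E2+TCDD 3, much nearer 0 than the others.

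In the liver list of 24 tested genes pck1 rose and fabp10a and crp fell, with a median of 0.04. fabp10a, the fatty acid binding protein of hepatocytes, read 4586, 3411 and 2970 against 2372, 1729 and 1709, 1.87-fold lower (log2 -0.90 ± 0.07, limma adjusted p = 1.467e-05). crp, an acute phase protein, fell by 0.65, its groups overlapped, and it did not pass without the pair of letter C (limma adjusted p = 0.1472). ppp1r3ca, which targets a phosphatase to glycogen, fell by 0.64 and needed the pairs of both DMSO arrays, with limma adjusted p = 0.1183 without the first and 0.3032 without the second. Of 18 intestine genes 3 rose and 2 fell, but none rose and 1 fell with all 12 arrays or without the pair DMSO 2 and E2 3. slc15a1b, the peptide transporter of enterocytes, read 116, 144 and 134 against 205, 282 and 244 and rose 1.75-fold (limma adjusted p = 0.005228, 0.07262 without the pair DMSO 2 and E2 3 and 0.1372 with all 12 arrays). fabp6, a bile acid binding protein of the gut, fell by 0.63 with overlapping groups and did not pass with all 12 arrays (0.08394). alpi.2, an intestinal alkaline phosphatase, read 681, 685 and 335 against 267, 296 and 273. Its fall in the pair TCDD 2 and E2+TCDD 3 was -0.28 on the log2 scale, against -1.30 and -1.17 in the others, and it did not pass without either of those (limma adjusted p = 0.09402 and 0.1091). The small rises of apoa4b.1 and ctsl.1, 0.29 and 0.44, were lost on the 4 title-matching arrays (limma adjusted p = 0.2665 and 0.8887), where the list's median turned from 0.12 to -0.01. amy2a, an amylase, was the only one of 18 exocrine pancreas genes to pass, lower by 0.62, and that list's median was -0.07. It did not pass without the pair of letter C (limma adjusted p = 0.08247), without the pair DMSO 2 and E2 3 (0.1126) or with all 12 arrays (0.3699).

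The retina list, with 22 tested members, had 1 rise, 3 falls and a median of -0.18. opn1mw2, a green cone opsin, read 1437, 1433 and 1068 against 2274, 1947 and 2111, a log2 difference of 0.69 ± 0.10 without overlap (limma adjusted p = 0.002227). rcvrn2, a recoverin of photoreceptors, read 2732, 3333 and 3749 against 2102, 2401 and 2570 and fell by 0.46 (limma adjusted p = 0.003938); a second, much dimmer probe set differed by 0.09 and did not pass (0.9126). rbp4l and rlbp1a, which bind retinoids, fell by 0.41 and 0.44. Leaving out the pair TCDD 2 and E2+TCDD 3 ended the call of rbp4l (limma adjusted p = 0.05601), and leaving out the pair of DMSO 1 or of DMSO 2 that of rlbp1a (0.08919 and 0.1369). Of 19 clock genes 0 passed and the median was 0.21, and 5 passed, all higher, without the pair TCDD 2 and E2+TCDD 3. One probe set for the light-induced clock gene per2 was among the 15 largest rises, with 83.1, 53.1 and 34.4 against 214, 107 and 71.5, which overlap, and a log2 difference of 0.95 (limma adjusted p = 0.01705). It did not pass without the pair of DMSO 1 (0.1976) or of DMSO 2 (0.06628), or on the 4 title-matching arrays (0.07678). The brighter per2 probe set did not pass (limma adjusted p = 0.08459), with differences of 1.95 and 1.96 in the pairs of DMSO 1 and DMSO 2 and -0.26 in the pair TCDD 2 and E2+TCDD 3. LOC567909 had a like pattern, at 218, 224 and 162 against 880, 825 and 204: its difference was 1.94 and 1.81 in the first pairs and 0.31 in that of TCDD 2, its groups overlapped, and without the first or the second pair it did not pass (limma adjusted p = 0.0985 and 0.07609).

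No gene of the fast muscle (22), erythroid (8), radial glia and neuron (23), DNA replication (38) or cholesterol synthesis (10) lists passed, in the number of members given in brackets. The list medians were 0.02, -0.03, -0.04, -0.09 and -0.16 in that order. Of the DNA replication genes 28 of 38 lay below 0, and of the cholesterol genes 8 of 10, beside 51.9% of all probe sets tested. Only cmlc1, a cardiac myosin light chain, passed among 8 heart genes, lower by 0.50, and that list's median was -0.04. Without any 1 of the pairs cmlc1 did not pass (limma adjusted p = 0.06678 to 0.1541), with differences of -0.42 to -0.62. Of estrogen-responsive genes, the receptors esr1, esr2a and esr2b were below the filter on dim probe sets, and vtg1, pgr and f13a1a were not named on the array's annotation. The 3 that could be tested did not pass: gnrh3 differed by -0.07, igfbp1a by 0.28 and igfbp1b by 0.33 on the log2 scale.

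**Figure D4:**
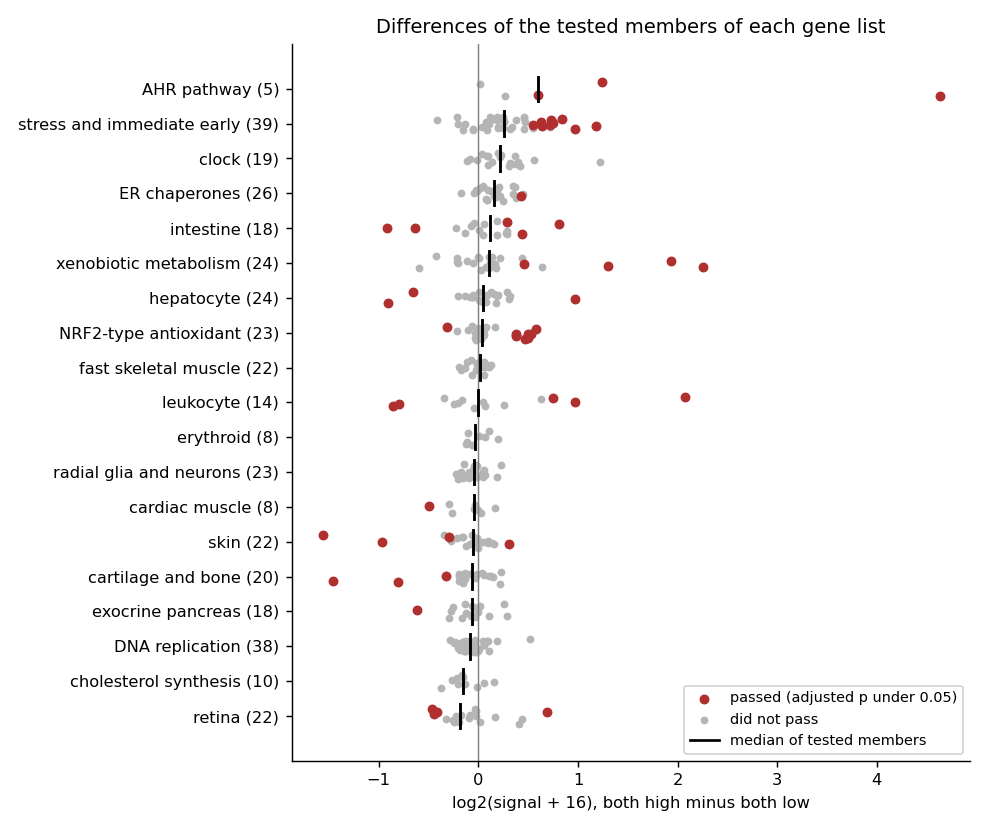
Log2 difference, both-high minus both-low, of every tested member of the 19 gene lists with at least 5 tested members (number in brackets); red points passed, grey points did not, and black bars are list medians. The medians run from -0.18 for retina to 0.59 for the AHR pathway, and the red points of the stress and immediate early list all lie above 0.

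The both-high arrays were then set against the other 2 kinds of array in a fit of all 12 arrays in 4 marker states with the same 3 blocks. Against the 3 arrays with cyp1a alone high (titled TCDD 1, E2 2 and E2+TCDD 2), 0 of 11622 probe sets passed (0%) with limma, with 510 at an unadjusted p under 0.05, 231 higher and 279 lower, and a smallest adjusted p of 0.9543. Among probe sets with 1 gene symbol, those with the smallest p were for smim13 (log2 difference 0.44), crygm2c, a lens crystallin (0.45), nipsnap2 (0.33), zgc:73226 (-0.61) and hnrnpl (0.34). Over the 30 genes with the largest changes, which were chosen with the both-high arrays, the difference between both-high and cyp1a-alone arrays had a median size of 0.08 on the log2 scale and was largest for LOC567909, at 0.42. cyp1c1 read 2103, 3690 and 2983 on the cyp1a-alone arrays and sox9b read 224, 309 and 307, in both cases around the both-high values. The 95% confidence intervals of these 30 differences reached at most 1.09 in size, for fosab. They were tighter for others, such as krt15 (-0.18 to 0.16) and sox9b (-0.15 to 0.29). The interval of ppp1r3ca, -0.59 to -0.03, left out 0, though its limma adjusted p was 0.9543. The intervals were not adjusted for the number of genes. For each gene, differences within its interval were not excluded, and the absence of a call does not show that the 2 kinds of array were alike.

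Against the 3 arrays with cyp19a1b alone high (titled E2 1, DMSO 3 and TCDD 3), 142 probe sets passed with limma, 1.22% of those tested, 97 higher (0.835%) and 45 lower (0.387%), with 1194 at an unadjusted p under 0.05. The count was 67, 64 and 79 when the block of DMSO 1, DMSO 2 or TCDD 2 was left out, in that order. Of the 190 probe sets above, 99 also passed here in the same direction, 75 higher and 24 lower; the 2 comparisons share the both-high arrays. cyp1c1 read 93.2, 94.4 and 78.2 on the cyp19a1b-alone arrays, 4.81 below the both-high arrays on the log2 scale (limma adjusted p = 4.383e-12), and krt15 read 2518, 2531 and 2348, 1.45 above them (limma adjusted p = 2.013e-08). Of the 30 genes with the largest changes 21 passed, 12 of the 15 rises and 9 of the 15 falls. fabp10a was among those that did not: it read 2561, 2857 and 1155 on these arrays, and the both-high difference from them was -0.09 (limma adjusted p = 0.9081). In the same 12-array fit fabp10a differed from the both-low arrays by -0.81 on the cyp19a1b-alone arrays, by -0.70 on the cyp1a-alone arrays and by -0.90 on the both-high arrays, 3 values that share the both-low arrays. crp gave -0.59, -0.91 and -0.65 in the same order, and si:dkeyp-73d8.9 gave -0.58, -0.82 and -0.90. In this fit their both-high differences from the both-low arrays did not pass (limma adjusted p = 0.2189 and 0.1043), nor did those between both-high and cyp19a1b-alone arrays (0.964 and 0.7267). The cyp19a1b-alone values of crp and si:dkeyp-73d8.9 rested largely on the array TCDD 3. There they read 150.5 and 290.8, against 445.8 and 843.6 on TCDD 2 of the same block. On E2 1 they read 651.7 and 462.8, against 750.8 and 583.4 on DMSO 1. On DMSO 3 crp lay slightly below DMSO 2, and si:dkeyp-73d8.9 read 702.8 against 667.6.

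**Figure D5:**
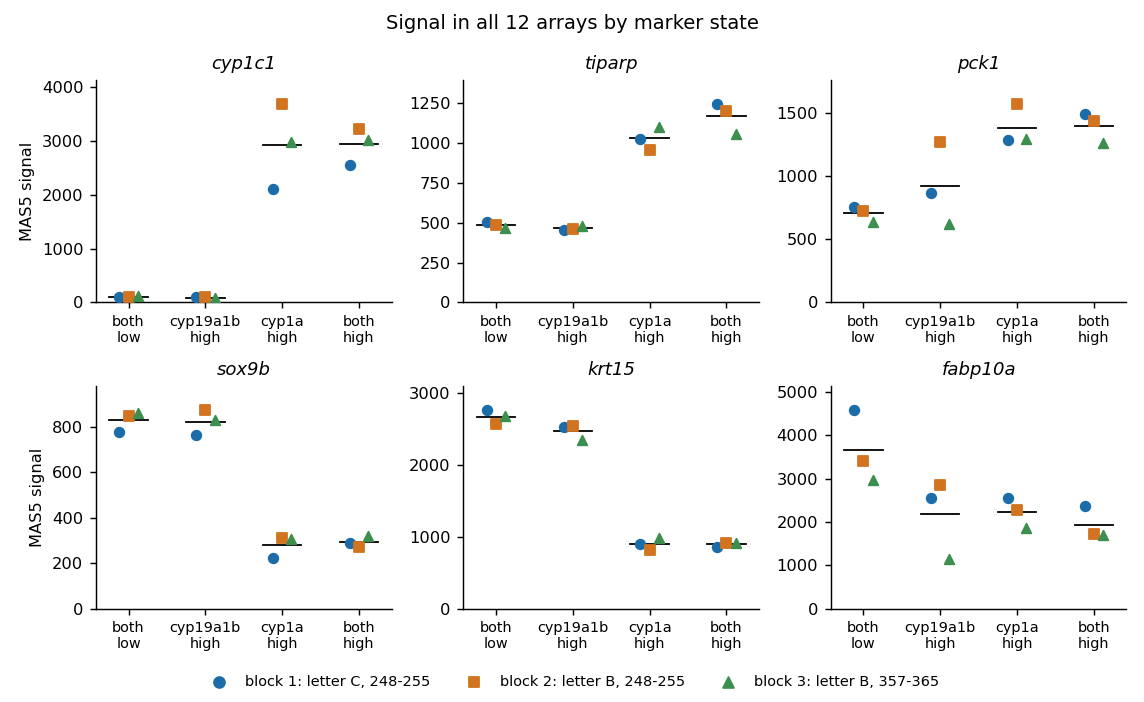
MAS5 signal (axis from 0) of 6 genes on all 12 arrays in the 4 marker states; points are arrays, coloured by block, and black bars are means of 3 arrays. For cyp1c1, tiparp, sox9b and krt15 the both-high arrays lie among or near the cyp1a-alone arrays and far from both other states, while fabp10a on cyp19a1b-alone arrays, at 1155 to 2857, spans the both-high values of 1709 to 2372.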

How the data were processed

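Total RNA of pools of whole larvae was hybridised to 12 Affymetrix zebrafish arrays. Per the submitters' processing notes, the authors computed the deposited intensity of each probe set with the MAS5 method in Affymetrix Expression Console; no version is given in the sources used here. Each array's trimmed mean was 500.121 to 500.137, so no further scaling was applied before taking log2(signal + 16) of the deposited signal. Of 15617 probe sets, 115 controls and 8 of the marker clusters (numbered as those of cyp1a and cyp19a1b, or annotated to them) were left out, as were dim ones, whose mean over all arrays lay below the 25th percentile; the 11622 tested stood for 7306 genes. Symbols came from the array's annotation, 1 each for 10802 probe sets, several for 135 and none for 4680, updated by Entrez gene ID through a RefSeq table (10718 matched, 1 symbol changed).

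Tests were two-sided, with limma 3.58.1 in R 4.3.3 (lmFit, eBayes with a variance trend) and Benjamini-Hochberg adjustment over all probe sets tested. Both-high against both-low used 6 arrays and the pairs as a block; the other 2 comparisons used all 12 arrays. Arrays carry no counts, and their number limits the precision. Named genes are the 15 that rose most and the 15 that fell most, among those with a single symbol, a call and the same sign in 3 pairs. Also named are members of the lists with a call and some preset genes of AHR and estrogen signalling. For a comparison with under 5 calls, the 5 smallest p among probe sets with a single symbol are named. A list member is represented by its tested probe set with the highest mean. The brighter per2 probe set, the list members that did not pass, and the genes given for all 4 marker states were picked after seeing their values. The arrays, the 21 lists (668 genes, 386 tested) and the tests were chosen with earlier results of these data known. Promoter sequences and genome positions were not used here. Alternatives covered the added constant, the filter, the normalization, the block, the variance model and the arrays in the fit.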

Additional observations from a re-analysis of the deposited data

Results flagged for a closer look

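For 5 gene lists the median log2 difference in the pair TCDD 2 and E2+TCDD 3 had the opposite sign to that in both other pairs; with 1 pair on one side, the difference was not tested. The clock list had -0.0532 there, against 0.22 and 0.436 in the pairs of DMSO 1 and DMSO 2. The hepatocyte list had -0.0194 against 0.0293 and 0.144. The exocrine pancreas list had 0.0964 against -0.19 and -0.158, the leukocyte list 0.0528 against -0.321 and -0.00575, and the erythroid list 0.025 against -0.0751 and -0.00388. These medians were within 0.1 of 0 in that pair.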

How the results depend on the processing

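The count of 190 probe sets stayed within 1.5 times with an added constant of 1 or 64 (176 and 196), a filter at the 50th percentile (174) or none (139), quantile normalization (182), median centring (179), array weights (228), all 12 arrays (157) and the 4 title-matching arrays (242, of which 54.1% were higher against 66.8% in the main fit). It was 118 with the description letter as the block, 16 with no block, 29 with no variance trend and 436 with arrays of 1 number averaged. The averaged values, the title-matching arrays and the both-high against both-low fits without 1 pair each leave 1 residual degree of freedom. In all of those fits the spread comes nearly all from other probe sets, and their adjusted p-values are to be read with that limit. The main fit, of 6 arrays with the pairs as a block, also leaves few residual degrees of freedom. Its spread comes largely from other probe sets too, and its small adjusted p-values carry the same limit. Leaving out each pair in turn gave 84 to 258, and 64 to 79 in place of 142 against the cyp19a1b-alone arrays, where the 6 arrays compared alone gave 104. Against the cyp1a-alone arrays the count was 0 in the 12-array fit, in the 6 arrays compared alone and without each block; other settings were not run for it. Of the 30 genes with the largest changes, 30 passed with array weights, 26 with the letter as the block, 25 with all 12 arrays, 18 with no variance trend and 12 with no block. Of the 61 probe sets followed through the both-high against both-low fits, none changed direction in any fit that held it. The genes named for the other comparisons also kept their direction in the fits run for them. The brighter per2 probe set, other second probe sets, gnrh3, igfbp1a and igfbp1b were not followed in this way. A call lost without a pair did not always go with a smaller difference. Without the pair DMSO 2 and E2 3 the log2 difference was 0.61 for gclm and 0.77 for klf2b, against 0.58 and 0.75 in the main fit. That of junbb was 0.53 against 0.63, and that of mmp13a without the pair of letter C was 0.57 against 0.97. On the 4 title-matching arrays the leukocyte median was -0.21 in place of 0.00 and the xenobiotic median 0.00 in place of 0.11. No paired analysis was possible by the titles' replicate numbers, because these (1, 3 and 3 against 1, 2 and 2) have only number 1 in common. The pairs that serve as the block throughout come instead from the descriptions' letters and number series. Causes were not tested. Dim probe sets, such as those of the estrogen receptors, limit what can be measured.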
